A study of Mus musculus with 18 samples.

Results

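The 5 small heat shock protein genes Hspb1, Hspb6, Hspb7, Hspb8 and Cryab were followed together with Bag3, the gene of a cochaperone that binds several of them, in B16F10 mouse melanoma cells and tumours. The rows were chosen by gene symbol, and all 6 symbols were found among the 23453 genes of the count table. The symbols were picked with the knockdown results of these same libraries known. Their levels and fold changes are therefore given as a description, with no p-value for a single gene. Counts of the 6 that passed a threshold are set beside the share of all genes that did, and nothing is read from them. All 6 genes passed the filter on low counts in the main fits.

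Small heat shock proteins share an alpha-crystallin domain, assemble into oligomers and hold unfolding proteins without using ATP, so that Hsp70 can refold them or hand them over for breakdown. Bag3 links Hspb8 and other small heat shock proteins to Hsp70 and to the autophagy machinery, a route called chaperone-assisted selective autophagy that is best known from muscle. Several of these genes are induced through heat shock elements, inverted repeats of the bases GAA that heat shock factors bind. Hspb6, Hspb7 and Cryab are abundant in heart and skeletal muscle.

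Every library came from the line B16F10, of strain C57BL/6J by its label. Cells had received a lentiviral pLKO.1 shRNA against Hgs, the gene of the endosomal sorting protein Hrs (shHrs), or a scrambled shRNA (shCTL), and were selected with drug for 5 days. Cultures formed 2 batches, each with 2 shCTL and 2 shHrs libraries, and the labels do not say what the libraries of a batch shared. Tumours came from such cells grown in immunocompetent wild type C57BL/6 mice, and per the protocol the mice were females 6 to 8 weeks old, with 5 shCTL and 5 shHrs tumours. The labels do not name the shRNA clone. Nothing in them tells separate cultures of 1 batch from repeated libraries of 1 culture, so a test on cultures covers the variation between libraries and perhaps only technical variation. The series title concerns tumour immune evasion and protein homeostasis, and the comparisons here ask how these chaperone genes stood after Hrs knockdown in each setting.

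Total counts ran from 17.6 to 27.7 M (mega) per library. Hgs itself stood at 95.0 to 113 CPM (counts per mega of the scaled library total) in the 4 shCTL cultures and at 30.4 to 44.5 CPM in the 4 shHrs cultures. In tumours it stood at 95.8 to 112 CPM with shCTL and at 16.1 to 29.2 CPM with shHrs, and no library went against its label. All 12 melanocyte lineage markers were detected in every tumour, where their summed level ran from 25119 to 36694 CPM. In cultures it was lowest in the batch 2 shHrs libraries, at 9212 and 8490 CPM, against 19280 and 16776 CPM in the batch 2 controls and 15519 to 29560 CPM in batch 1. The part of that in the results for batch 2 was not tested. The 2 shHrs libraries of batch 1 differed by 220 chi-square per degree of freedom, against 37.1 to 96.9 in the other culture groups. Which of the 2 departs was not tested. Results for batch 1 are given with both and without shHrs replicate 1, and for some genes without shHrs replicate 2. Either omission leaves 1 shHrs library there. A gene is called where its adjusted p, by edgeR's quasi-likelihood test unless another tool is named, lies under the threshold of 0.05.

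The genes lie on 4 chromosomes of GRCm38 (mm10). Hspb1 (ENSMUSG00000004951.10) spans chr5:135887919-135889563 on the plus strand in 3 exons, and Hspb8 (ENSMUSG00000041548.4) spans chr5:116408491-116422864 on the minus strand in 3 exons. Hspb6 (ENSMUSG00000036854.14) spans chr7:30552178-30555443 on the plus strand, and its exons share bases with Gm38670 on the same strand and with Lin37 and Proser3 on the other. Bag3 (ENSMUSG00000030847.8) spans chr7:128523616-128546981 on the plus strand in 4 exons. Hspb7 (ENSMUSG00000006221.7) spans chr4:141420779-141425311 on the plus strand in 3 exons. Cryab (ENSMUSG00000032060.10) spans chr9:50751325-50756636 on the plus strand. Its gene body shares 1030 bases with Hspb2 on the minus strand, exons included. The strand setting of the counting is not known here, and reads from the shared bases of Cryab and Hspb2, or of Hspb6 and its neighbours, cannot be told apart.

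Promoter windows of RefSeq genes on GRCm38.p6, from 250 bases before to 50 bases after each start, were read for 5 of the 6 genes and searched on both strands for inverted GAA units, spelled GAANNTTC or TTCNNGAA. Hspb1, Hspb6, Hspb8 and Bag3 had a match and Hspb7 had none, which makes 4 of 5 genes, against 17.0% of the 27025 genes with a window. The matches are shown because 4 genes of the set carried the same 8 letters. Capitals mark the match, and each sequence is written 5′ to 3′ on the strand of its gene.
Hspb1: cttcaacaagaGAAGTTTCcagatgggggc
Hspb6: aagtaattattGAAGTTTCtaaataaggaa
Hspb8: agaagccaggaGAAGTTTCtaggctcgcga
Bag3: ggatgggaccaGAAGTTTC
The stretch of Hspb1 lies at chr5:135887791-135887820 with its match starting 117 bases before the start. Hspb6 has 2 starts with a window, and the match begins 120 bases before one of them. The match of Hspb8 begins at base 3 after the start and that of Bag3 at base 43, so both lie within the transcribed region. Hspb1 held another match, GAACCTTC, beginning 97 bases before its start. The letters GAAGTTTC, a spelling singled out after these matches were seen, were in the windows of 1.35% of genes on either strand. A longer spelling with 3 units, GAANNTTC followed by NNGAA or its counterpart that starts with TTC, matched 0 of the 5 genes and 0.662% of all genes. The match of Bag3 ends at the last base of its window, so a further unit after it could not be seen. A match is a run of letters, and binding was not measured.

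In culture batch 2 all 6 genes were higher with shHrs, and in each of them both shHrs libraries lay above both shCTL libraries. That was also true of 35.0% of all 12897 genes tested. Hspb1 and Hspb7 stood about 21-fold higher, Hspb8 4.67-fold, Hspb6 4.33-fold, Cryab 3.02-fold and Bag3 2.11-fold, by edgeR's fitted fold changes. EdgeR called 5 of the 6 higher, all but Cryab, against 1.60% of all genes tested called higher. DESeq2 called 6 of the 6 higher, against 7.51% of all genes. Without any one of the 4 batch 2 libraries edgeR called 0 of the 6 genes and 0 genes in all there, with 5 or 6 of the 6 and 13.1% to 22.7% of all genes at an unadjusted p under 0.05.

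In culture batch 1 the 6 genes had no common direction. Hspb6 and Hspb7 stood below the controls, Hspb1 was higher in 1 of 2 shHrs libraries, and Hspb8, Cryab and Bag3 overlapped between the groups. EdgeR called 0 of the 6 genes there, as it did 0% of the 12897 genes tested, with 3 of the 6 and 9.38% of all genes at an unadjusted p under 0.05. Without shHrs replicate 1 the effect rests on 1 shHrs library, and the log2 fold change was 3.05 for Hspb1 and -1.71 for Cryab. Without shHrs replicate 2 instead it was 0.56 for Hspb1 and -0.38 for Cryab. DESeq2 on all libraries called Hspb6 and Hspb7 lower, with 1.71% of genes called. Every shHrs library lay below every shCTL library for 2 of the 6 genes and for 16.8% of all genes.

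In tumours Hspb6, Hspb7, Hspb8 and Cryab had higher means with shHrs, Hspb1 had nearly equal means, and Bag3 was lower in all 5 shHrs tumours than in all 5 shCTL tumours. EdgeR called 0 of the 6 genes, against 0.545% of the 13215 genes tested, with 5 of the 6 and 14.1% of all genes at an unadjusted p under 0.05. DESeq2 called Hspb7 and Cryab higher, with 4.15% of genes called. In bulk tumour RNA, fewer cells of a type and less RNA per cell cannot be told apart.

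**Figure D1:**
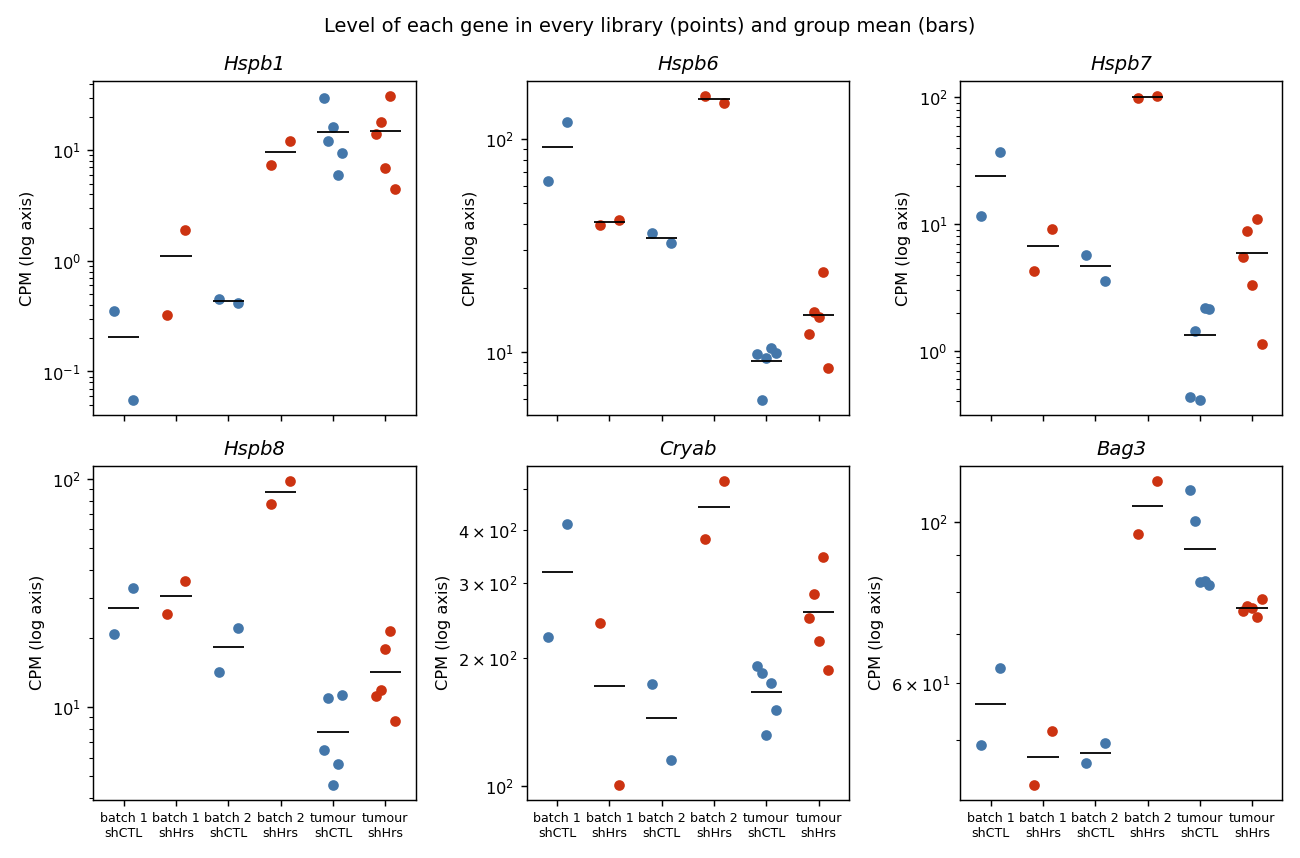
CPM on a log axis (vertical) of each of the 6 genes in every library of the 6 groups (horizontal). Blue points are shCTL and red points shHrs libraries, and black bars are group means of 2 cultures or 5 tumours. In batch 2 both red points lie above both blue points for every gene, and in tumours only Bag3 has groups that do not overlap.

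Hspb1 encodes Hsp27 (mouse Hsp25), the widely expressed small heat shock protein that also binds actin and intermediate filaments. In batch 2 it stood at 0.456 and 0.417 CPM with shCTL and at 7.32 and 12.2 CPM with shHrs. The controls of that batch held only 10 reads each, against 153 and 324 reads in the shHrs libraries. In batch 1 it stood at 0.353 and 0.0552 CPM with shCTL, which were 9 reads and 1 read, and at 0.323 and 1.91 CPM with shHrs. Only shHrs replicate 2 was above the controls of batch 1. The log2 fold change was 4.41 (SE 0.89, n = 2 and 2) in batch 2 and 2.32 (SE 0.93, n = 2 and 2) in batch 1, and it was 3.05 in batch 1 without shHrs replicate 1 and 0.56 without shHrs replicate 2. Tumours of both groups held more of it than any shCTL culture. The 5 shCTL tumours stood at 29.6, 12.1, 16.3, 5.93 and 9.51 CPM and the 5 shHrs tumours at 14.1, 17.96, 6.88, 30.8 and 4.44 CPM. The ranges coincide, and the log2 fold change in tumours was 0.02 (SE 0.52, n = 5 and 5).

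Hspb8 encodes the small heat shock protein that forms the complex with Bag3. In batch 2 it stood at 14.2 and 22.3 CPM with shCTL and at 77.9 and 98.2 CPM with shHrs, a log2 fold change of 2.22 (SE 0.34). In batch 1 it stood at 21.0 and 33.1 CPM with shCTL and at 25.6 and 35.8 CPM with shHrs. Those ranges overlap, and the log2 fold change was 0.17 (SE 0.33), or 0.36 without shHrs replicate 1. The shCTL tumours held 6.47, 10.9, 4.57, 5.64 and 11.2 CPM and the shHrs tumours 11.2, 11.9, 17.99, 21.6 and 8.68 CPM. Of the 5 shHrs tumours, 3 lay above every shCTL tumour, with replicates 1 and 5 inside the range of the controls, and the log2 fold change was 0.87 (SE 0.31).

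Bag3 itself varied least of the 6 over the cultures. In batch 2 it stood at 46.5 and 49.6 CPM with shCTL and at 96.1 and 114 CPM with shHrs, a log2 fold change of 1.08 (SE 0.23). In batch 1 it stood at 49.3 and 62.8 CPM with shCTL and at 43.4 and 51.4 CPM with shHrs, a log2 fold change of -0.25 (SE 0.23), or -0.17 without shHrs replicate 1. The shCTL tumours held 111, 100.3, 82.7, 83.0 and 81.8 CPM, and the shHrs tumours lay close together at 75.2, 76.5, 76.1, 74.0 and 78.3 CPM. The tumour groups did not overlap, as was so for 2.28% of the 13215 genes tested in that direction. The log2 fold change was -0.28 (SE 0.09). Bag3 and Hspb8, which act together as proteins, thus had tumour fold changes of opposite sign.

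Cryab encodes alpha-B-crystallin, a chaperone of the lens and of striated muscle that guards desmin filaments. In batch 2 it stood at 174 and 115 CPM with shCTL and at 381 and 522 CPM with shHrs, a log2 fold change of 1.59 (SE 0.48). In batch 1 it stood at 224 and 413 CPM with shCTL and at 242 and 101 CPM with shHrs. Batch 1 shHrs replicate 1 lay within the range of the controls and replicate 2 below it, and the log2 fold change was -0.90 (SE 0.47). It was -1.71 without shHrs replicate 1, -0.38 without shHrs replicate 2 and -0.38 without shCTL replicate 2. The shCTL tumours held 191, 184, 132, 175 and 151 CPM and the shHrs tumours 248, 282, 219, 345 and 187 CPM. Of the 5 shHrs tumours, 4 lay above every shCTL tumour, and the log2 fold change was 0.62 (SE 0.16). The overlapping gene Hspb2 was not called in batch 2 (log2 fold change 0.47, SE 0.28, adjusted p = 0.302 by edgeR) or in tumours (0.12, SE 0.12, adjusted p = 0.732 by edgeR).

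Hspb6 encodes Hsp20, known from smooth, cardiac and skeletal muscle. In batch 2 it stood at 36.2 and 32.5 CPM with shCTL and at 159 and 148 CPM with shHrs, a log2 fold change of 2.11 (SE 0.32). In batch 1 the order was the opposite, with 63.8 and 121 CPM in shCTL and 39.6 and 41.5 CPM in shHrs libraries. There the log2 fold change was -1.20 (SE 0.31), and it was -1.20 without shHrs replicate 1 and -0.65 without shCTL replicate 2, the higher control. The shCTL tumours held 9.81, 5.94, 9.31, 10.4 and 9.84 CPM and the shHrs tumours 12.1, 15.4, 14.6, 23.8 and 8.39 CPM. Again 4 of the 5 shHrs tumours lay above every shCTL tumour, and the log2 fold change was 0.71 (SE 0.26).

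Hspb7, the small heat shock protein of heart and skeletal muscle, had the widest range over the cultures in log2 CPM with a pseudocount of 2. As a plain ratio Hspb1, with 1 read in its lowest library, ranged further. In batch 2 it stood at 5.74 and 3.55 CPM with shCTL and at 99.5 and 102 CPM with shHrs, a log2 fold change of 4.39 (SE 0.62). In batch 1 it stood at 11.6 and 36.8 CPM with shCTL and at 4.31 and 9.21 CPM with shHrs, a log2 fold change of -1.85 (SE 0.56). It was -1.44 without shHrs replicate 1, and leaving out any 1 library gave -2.47 to -0.78, the latter without shCTL replicate 2. The shCTL tumours held 0.435, 1.44, 0.410, 2.19 and 2.16 CPM, as few as 7 reads in a library. The shHrs tumours held 5.48, 8.80, 3.34, 10.9 and 1.14 CPM. All but shHrs replicate 5 lay above every shCTL tumour, and the log2 fold change was 2.16 (SE 0.63).

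**Figure D2:**
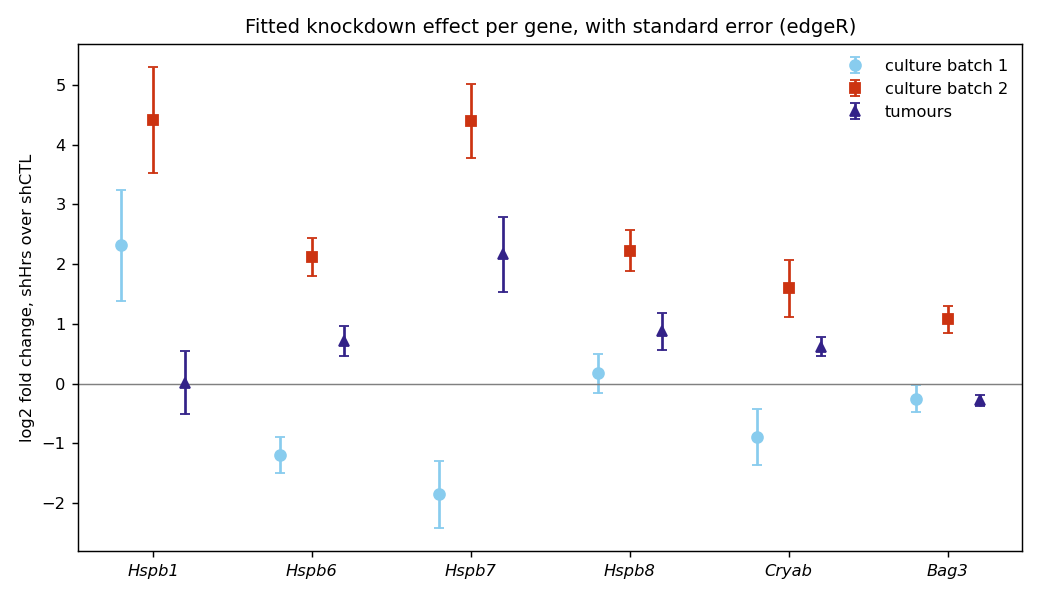
Fitted log2 fold change of shHrs over shCTL (vertical) for each of the 6 genes (horizontal), with bars of 1 standard error by edgeR. Circles are culture batch 1, squares culture batch 2 (2 against 2 libraries each) and triangles tumours (5 against 5): all 6 squares are above 0, while Hspb6 and Hspb7 lie at -1.20 and -1.85 in batch 1.

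The controls of both batches were not at one level. For Hspb6 the shCTL mean was 92.2 ± 40.1 CPM (SD, n = 2) in batch 1 and 34.3 ± 2.62 CPM in batch 2, and for Hspb7 it was 24.2 ± 17.8 CPM and 4.65 ± 1.56 CPM. Control levels of Cryab were 319 ± 133 CPM in batch 1 and 144 ± 41.6 CPM in batch 2. The shHrs means of batch 2 were above the shCTL means of batch 1 for each of the 6 genes. What sets the batches apart is not in the labels.

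The difference between the knockdown effects of batch 2 and batch 1 was positive for all 6 genes. On the log2 scale it was 6.24 (SE 0.83) for Hspb7, 3.31 (SE 0.44) for Hspb6, 2.49 (SE 0.67) for Cryab, 2.09 (SE 1.28) for Hspb1, 2.05 (SE 0.47) for Hspb8 and 1.33 (SE 0.32) for Bag3. EdgeR called it for Hspb6 and Hspb7, against 0.155% of all genes tested, and DESeq2 called it for 5 of the 6, against 7.60%. EdgeR's calls for Hspb6 and Hspb7, like all its others, ended without batch 1 shCTL replicate 2 or without any one batch 2 library. Each of those fits leaves 1 library in a group. Without batch 1 shHrs replicate 1 the difference was 3.35 for Hspb6 and 5.86 for Hspb7. Without batch 1 shHrs replicate 2 it was 3.32 and 6.86, and in both fits it was positive for all 6 genes.

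The effect in tumours was smaller than that in batch 2 for each of the 6 genes. The difference, tumours minus batch 2, was -4.45 (SE 1.13) for Hspb1, -2.28 (SE 1.00) for Hspb7, -1.45 (SE 0.43) for Hspb6, -1.40 (SE 0.53) for Hspb8, -1.40 (SE 0.20) for Bag3 and -1.02 (SE 0.44) for Cryab on the log2 scale. EdgeR called it for Hspb1, Hspb6 and Bag3, in a comparison where 15.2% of 14458 genes were called. Leaving out 1 library gave 1 to 4 of the 6, while 4.01% to 18.6% of all genes were called. Against batch 1, in a difference that uses the same tumours, edgeR called Hspb6 alone (1.89, SE 0.44), with 1.07% of genes called. That call ended with size factors of another kind and without most single libraries.

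Per kilobase of the main annotated transcript, Cryab was the most abundant of the 6 in every group. With shHrs in batch 2 its mean level was 404 CPM per kilobase, followed by Hspb6 at 113, Hspb8 at 48.5, Bag3 at 41.0, Hspb7 at 36.4 and Hspb1 at 10.8, and only the neighbours Hspb8 and Bag3 overlapped in their ranges. In the shCTL cultures of batch 2 the order was Cryab at 129, Hspb6 at 25.2, Bag3 at 18.7, Hspb8 at 10.0, Hspb7 at 1.68 and Hspb1 at 0.483 CPM per kilobase, with no overlap between neighbours. In shCTL tumours Bag3 was second at 35.8 CPM per kilobase, after Cryab at 149. Hspb1 followed at 16.3, Hspb6 at 6.65, Hspb8 at 4.28 and Hspb7 at 0.478 CPM per kilobase. There the ranges of Bag3 and Hspb1, of Hspb1 and Hspb6, and of Hspb6 and Hspb8 overlapped.

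Other small heat shock genes were mostly too low to test. Of a list of 6 (Hspb2, Hspb3, Hspb9, Hspb11, Odf1 and Cryaa), Hspb2 and Hspb11 passed the filter in cultures and in tumours, and edgeR called neither in any comparison. Hspb11, now known as a part of the intraflagellar transport machinery, had a log2 fold change of -0.9998 (SE 0.51) in batch 2 and 0.07 (SE 0.23) in tumours. Hsf1, the main factor that binds heat shock elements, had a log2 fold change of -0.08 (SE 0.24, adjusted p = 0.848 by edgeR) in batch 2 and 0.02 (SE 0.10, adjusted p = 0.950 by edgeR) in tumours.

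Larger chaperones of the heat shock response were called higher in batch 2, a pattern that was known when the list was written and is no independent support. The list held 22 genes for Hsp70, Hsp40, Hsp90 and Hsp110 proteins and their partners, and for the chaperonin Hspd1 and its partner Hspe1. Of these, 21 were tested in batch 2, where edgeR called 7 higher, against 1.60% of all genes called higher, and 0 lower. The median log2 fold change was 0.90, against -0.05 over all genes tested. Hspa1b, an inducible Hsp70, stood at 7.80 and 4.55 CPM with shCTL and at 42.5 and 38.2 CPM with shHrs. Its log2 fold change was 2.66 (SE 0.40, adjusted p = 0.0229 by edgeR). Hspa1b has a near-identical copy, Hspa1a, which was too low to test in cultures, so the split of reads between them is uncertain. The constitutive Hsp70 gene Hspa8 went from 1370 and 1174 CPM to 5070 and 5276 CPM, a log2 fold change of 1.97 (SE 0.41, adjusted p = 0.0411 by edgeR).

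Further called genes of that list in batch 2 were Hsph1, an Hsp110 nucleotide exchange factor (log2 fold change 1.94, SE 0.29), the Hsp40 gene Dnaja1 (1.95, SE 0.39), the inducible Hsp90 gene Hsp90aa1 (1.60, SE 0.28), its constitutive relative Hsp90ab1 (1.47, SE 0.30) and the Hsp90 activator Ahsa1 (1.39, SE 0.29). The Hsp40 gene Dnajb1 was not called there (0.48, SE 0.29, adjusted p = 0.307 by edgeR). Without any one batch 2 library edgeR called 0 of the 21, with 9 to 12 at an unadjusted p under 0.05, and DESeq2 on all libraries called 11. For those fits the share of all genes is given above with the 6 genes, and DESeq2 called 15.4% of all genes in batch 2. In tumours edgeR called 0 of 22 and 0.545% of all genes, with 5 of 22 and 14.1% of all genes at an unadjusted p under 0.05. DESeq2 called 1 of 22 and 4.15% of all genes there. The median log2 fold change in tumours was -0.14, against 0.01 over all genes tested. Hspa1b had a tumour log2 fold change of -1.15 (SE 0.40, adjusted p = 0.214 by edgeR), which became -0.48 without shCTL replicate 1, a tumour with 147 CPM against 32.7 to 43.6 CPM in the other 4 controls. The difference between the effects in tumours and in batch 2 was called lower for 11 of the 22, in a comparison where 8.02% of all genes were called lower.

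Among the 5 other Bag genes, edgeR called Bag2, a cochaperone that inhibits the ubiquitin ligase Stub1, higher in batch 2 (log2 fold change 1.24, SE 0.27, adjusted p = 0.0460 by edgeR), and 0 of the 5 in tumours by either tool. A list of 24 genes acting with Bag3 in selective autophagy and aggresome formation had a median log2 fold change of 0.19 in batch 2. EdgeR called 0 of the 24 there and 4.03% of all genes, with 8 of the 24 and 27.9% of all genes at an unadjusted p under 0.05. DESeq2 called 4 of the 24 and 15.4% of all genes. In tumours edgeR called 0 of the 24 and 0.545% of all genes, with 3 of the 24 and 14.1% of all genes at an unadjusted p under 0.05. DESeq2 called 1 of the 24 and 4.15% of all genes in tumours. Stub1, the ligase of the complex, had a log2 fold change of 0.17 (SE 0.22) in batch 2 and -0.06 (SE 0.09) in tumours. Sqstm1, the autophagy receptor p62, had 0.96 (SE 0.68) in batch 2 and 0.16 (SE 0.12) in tumours, and neither gene was called. In batch 1 Sqstm1 had 1.63 (SE 0.70), not called either, with 5889 CPM in shHrs replicate 2 and 975 CPM in replicate 1. The controls of batch 1 held 821 and 1354 CPM.

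**Figure D3:**
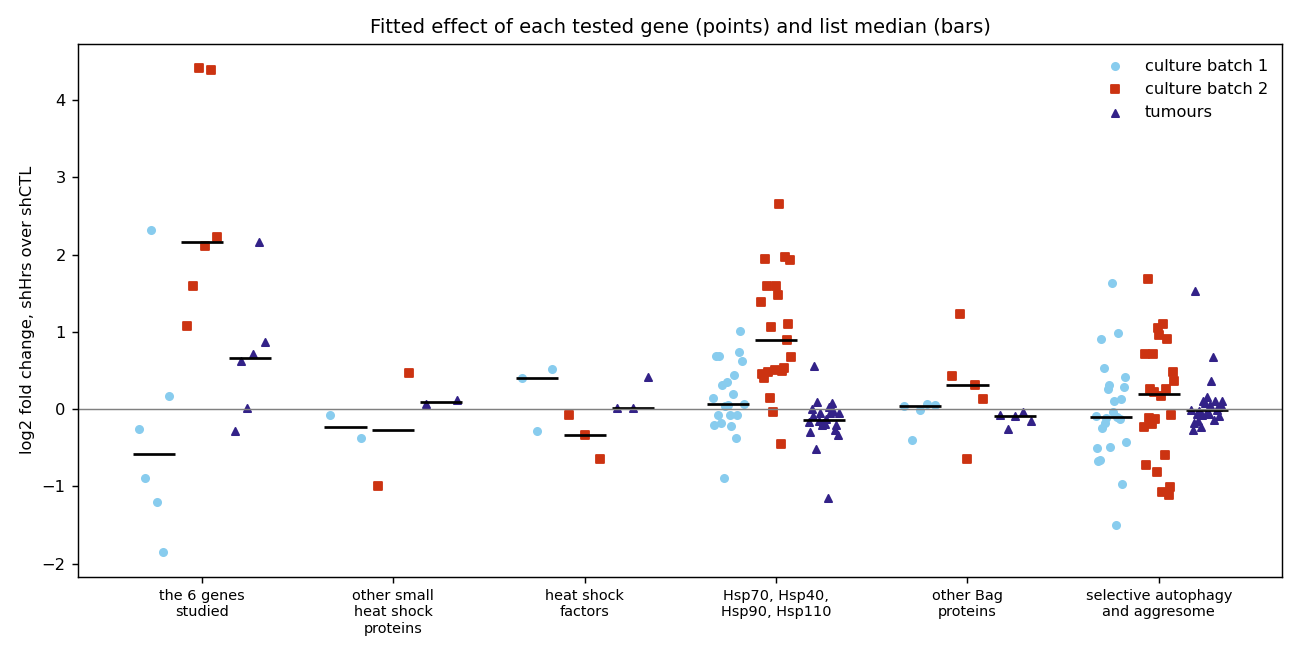
Fitted log2 fold change of shHrs over shCTL (vertical) for each tested gene of the set and of 5 lists of related genes (horizontal). Circles are culture batch 1, squares batch 2 and triangles tumours, and black bars are medians: for the larger chaperones the bars lie at 0.07 in batch 1, 0.90 in batch 2 and -0.14 in tumours.

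The summed level of skeletal muscle markers was higher in the mean of the shHrs tumours, as were Hspb6, Hspb7, Hspb8 and Cryab. Of 20 skeletal muscle genes, all 20 were in the table, 12 were detected in every tumour and 0 were at 0 in all tumours. Their summed level was 36.6, 58.3, 29.2, 99.4 and 330 CPM in the 5 shCTL tumours and 447, 520, 188, 1354 and 73.7 CPM in the 5 shHrs tumours, against 26.2 to 63.2 CPM in cultures. The log2 difference of 2.21 gave p = 0.0476 in a two-sided exact permutation test over all assignments of 5 and 5 tumours (adjusted p = 0.238 over 10 marker lists, smallest possible p = 0.00794), with 3 of 5 shHrs tumours above every shCTL tumour. As a mean of log2 levels the difference was 1.49 (p = 0.0714, adjusted p = 0.357, by the same permutation test). Within the shHrs tumours, Hspb7, Hspb1 and Cryab stood in the same order as the muscle level, from replicate 5 through replicates 3, 1 and 2 to replicate 4, while Hspb6, Hspb8 and Bag3 did not keep that order. Within the shCTL tumours Hspb7 kept that order except that replicates 4 and 5 were nearly equal, and the other 5 genes did not keep it. The muscle levels of shCTL replicates 1, 2 and 3 lay within the culture range, and these tumours held only 9, 29 and 7 reads of Hspb7.

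With the log2 summed muscle level as a covariate in the tumour fit, the log2 fold change of Hspb7 was 0.39, that of Hspb8 0.35, that of Cryab 0.31, that of Hspb6 0.19, that of Bag3 -0.19 and that of Hspb1 -0.78. EdgeR called 0 of the 6 in that fit too, with 0 of the 6 and 13.4% of all genes at an unadjusted p under 0.05. The covariate differs between the groups, so the muscle level and the knockdown cannot be fully told apart in these 10 tumours. Smooth muscle and pericyte markers, which could also carry Hspb6 and Cryab, spanned 144 to 283 CPM with shCTL and 141 to 235 CPM with shHrs. The same markers stood at 59.8 to 137 CPM in cultures, just under the lowest tumours. Their log2 difference was -0.03 (p = 0.897, two-sided exact permutation test), and all 13, of which Des is also in the skeletal muscle list, were detected in every tumour. In cultures the muscle level did not exceed 63.2 CPM, and the lowest Hspb7 level of a batch 2 shHrs culture, 99.5 CPM, was above that of every tumour.

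**Figure D4:**
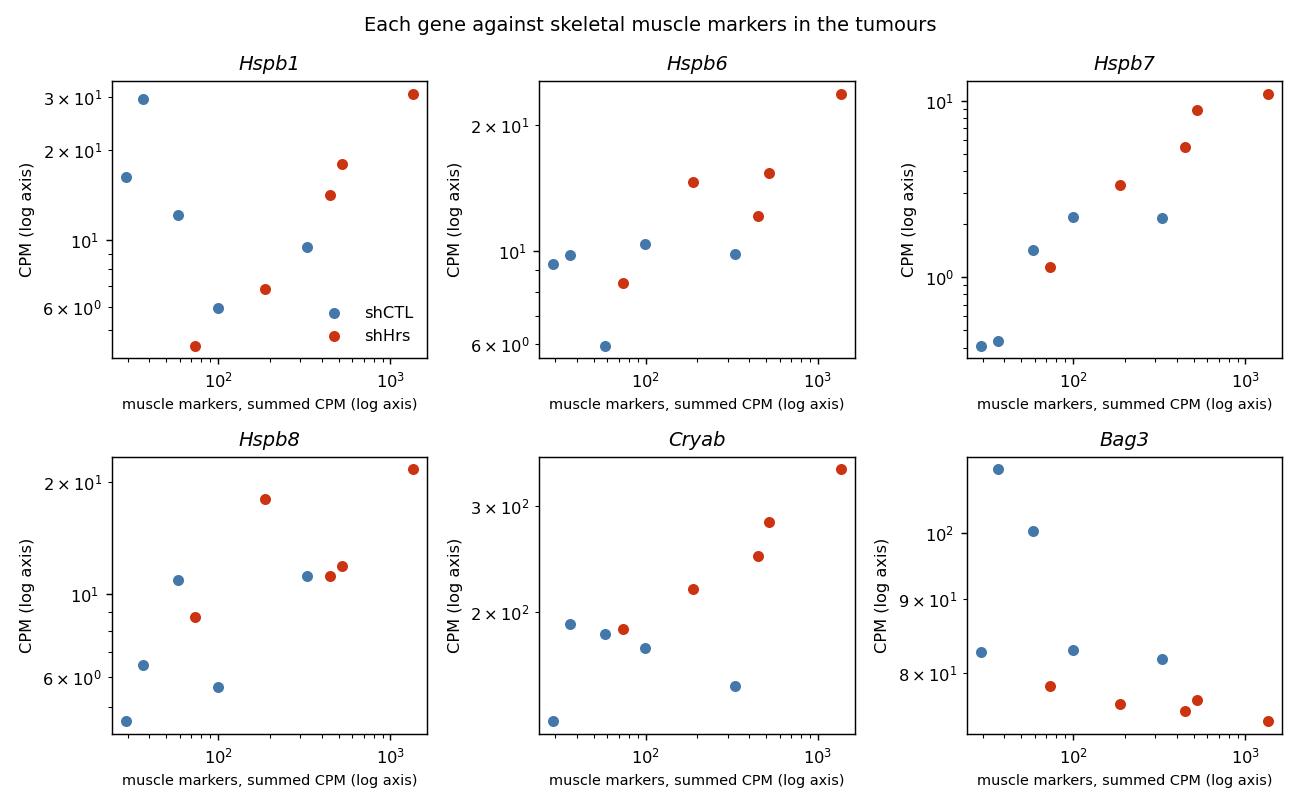
CPM of each of the 6 genes (vertical, log axis) against the summed CPM of 20 skeletal muscle markers (horizontal, log axis) in the 10 tumours, blue for shCTL and red for shHrs. Hspb7 runs from 0.410 CPM in the tumour with the lowest muscle level (29.2 CPM) to 10.9 CPM in the one with the highest (1354 CPM), while Bag3 stays between 74.0 and 111 CPM.

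Genes with the most similar profiles were sought for each member whose log2 CPM (pseudocount 2) spanned at least 2, by the mean absolute difference after centring each gene on its own mean. In the 10 tumours the nearest to Hspb7 were the muscle genes Klhl41 (0.12), Pdlim3 (0.13) and Nrap (0.16), and the nearest to Hspb1 were Cited1 (0.38), Art5 (0.39) and Ramp2 (0.41). In the 8 cultures the nearest to Hspb7 were Ctgf (0.31), Id1 (0.38) and Tnnt2 (0.42). Hspb8 lay nearest to Serpinb9 (0.13), Slc25a38 (0.17) and Parp9 (0.17), and Hspb1 to Ifi35 (0.20), Rtp4 (0.23) and Ifi27l1 (0.26). Hspb6 lay nearest to Greb1 (0.18), Baalc (0.21) and Cst6 (0.22), and Cryab near Fam20c (0.17) and Lmna (0.21). Bag3, with a span of 1.35, was not taken. Within the set, the closest pairs in cultures were Hspb6 with Cryab (0.29) and Hspb1 with Hspb8 (0.30), and the farthest was Hspb7 with Bag3 (1.08). In tumours Hspb6 with Cryab (0.24) was again the closest pair.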

How the data were processed

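RNA was sequenced from 8 cultures and 10 tumours. The deposited table holds raw counts per gene symbol, unnormalized whole numbers. Per the submitters' processing notes, STAR 2.4.0h2, DESeq and the build mm10 were used. How reads were counted, on which annotation and with which strand setting is not given in the sources used here. The 6 genes, the gene lists and the tests were chosen with earlier results of these data known.

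Genes were kept by filterByExpr (minimum count 10), scaled by TMM and tested with edgeR 4.0.16 (R 4.3.3) by its two-sided quasi-likelihood F test. P-values were adjusted by Benjamini-Hochberg across every gene tested, and 0.05 was the threshold. The 8 cultures were fitted with 4 group means, the 10 tumours alone, and differences between tumour and culture effects in all 18 libraries with 6 group means. CPM are edgeR's, on TMM-scaled library sizes, and standard errors follow from the fold change and its F statistic. Marker lists were compared as log2 summed CPM by exact permutation. Of 184 list symbols, 180 were in the table. Lengths and positions are GENCODE's on GRCm38. The labels do not say that replicate numbers pair the samples, and the main fits did not pair them. Libraries of a group differed by 14.5 to 220 chi-square per degree of freedom, above sampling noise, and each counts as 1 replicate.

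The named genes were the 6, Hgs, called genes of the related lists (up to 5 per list and comparison by adjusted p), Hsf1, Hspa1a, Hspa1b, Hspa8, Dnajb1, Stub1, Sqstm1 and Hspb2, and the 3 nearest profiles. An item that the rule took is not reported here. Hsp90ab1, Ahsa1 and Hspb11 were named outside that rule after their values were seen. Alternatives were other size factors (RLE), no filter, DESeq2 1.42.0, a replicate block, batches fitted alone, a muscle covariate, a pseudocount of 0.5 and leaving out each library. The fits were tested on simulated data.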

Additional observations from a re-analysis of the deposited data

Results flagged for a closer look

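Fitted differences between the effects of shHrs passed edgeR's threshold for 4 of the 6 genes. They are a description, since the genes were chosen with these contrasts known. On the log2 scale, batch 2 minus batch 1 was 3.31 for Hspb6 and 6.24 for Hspb7, in a comparison that called 0.155% of all genes. These calls, like all others of that comparison, ended without any one batch 2 library, which leaves 1 library in a group. Leaving out any 1 culture library gave 2.77 to 3.71 for Hspb6 and 5.17 to 6.86 for Hspb7. Tumours minus batch 1 was 1.89 for Hspb6, where 1.07% of genes were called, and this call ended with RLE size factors. Tumours minus batch 2 was -4.45 for Hspb1, -1.45 for Hspb6 and -1.40 for Bag3, where 15.2% of genes were called.

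Single tumours lay far from the other 4 of their group in 6 of 34 groups of levels examined. The rule took the gap to the nearest tumour over the range of the group, in CPM and not in log2. Its chance rate of about 1 in 20 holds for independent groups with normal spread. These groups share the same 10 tumours, so the count is not set against that rate. The Hspb6 level of tumour shCTL replicate 2 was 5.94 CPM, against 9.31 CPM in the nearest. Tumour shCTL replicate 5 held 330 CPM of skeletal muscle markers (nearest 99.4) and 10.5 CPM of keratinocyte markers (nearest 5.39, cultures up to 10.0). Tumour shHrs replicate 4, the tumour with the highest Hspb1, Hspb6, Hspb7, Hspb8 and Cryab of its group, held 1049 CPM of myeloid markers (nearest 376), 35.4 CPM of lymphoid markers (nearest 6.35) and 106 CPM of adipocyte markers (nearest 51.6).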

How the results depend on the processing

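Size factors of another kind moved no count of called genes or members by over 1.5 times in the cultures or in the tumours. Without the filter on low counts 17590 genes were tested in the cultures. EdgeR then called 438 genes (2.49%) and 2 members in batch 1, 2224 (12.6%) in batch 2, and 1311 (7.45%) and 5 members for their difference. DESeq2 called 220 genes and 2 members, 1988 genes, and 980 genes and 5 members there, and 549 genes and 2 members in tumours and 563 genes for tumours minus batch 1. Batch 2 fitted alone gave 4303 genes, and the muscle covariate 8 in tumours. The replicate block gave 1 gene in batch 1, and 3 members and 3.60% of all genes in batch 2. For batch 2 minus batch 1 it gave 1 member and 0.14% of all genes. In tumours it gave 2 genes, and -0.17 for Hspb1. Deviations of same-numbered libraries correlated at 0.18 in batch 1, above the threshold of 0.1 set for a block, and at 0.02 in batch 2. In tumours the correlation was -0.60 to 0.47, and 1 of 5 correlated best with its own number. Whether the numbers pair the libraries of batch 1 is not in the labels.

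Leaving out 1 library gave 0 to 1496 genes and 0 to 2 members in batch 1, 0 to 2732 genes and 0 to 6 members in batch 2, and 0 to 1968 genes and 0 to 5 members for their difference. It gave 32 to 158 genes in tumours (158 without shHrs replicate 4), 22 to 2511 for tumours minus batch 1 (22 without batch 1 shHrs replicate 2, 2511 without shHrs replicate 1) and 600 to 2658 for tumours minus batch 2. The sign turned for log2 fold changes near 0. Hspb8 in batch 1 ran from -0.14 to 0.55, Hsf1 in batch 2 from -0.27 to 0.13 and Stub1 there from -0.014 to 0.36. In tumours Hspb1 ran from -0.45 to 0.45, Hspa8 from -0.089 to 0.049, Hsf1 from -0.056 to 0.076 and Stub1 from -0.11 to 0.017, and Bag3 for tumours minus batch 1 ran from -0.23 to 0.14. The muscle covariate gave -0.78 for Hspb1, -0.12 for Hsf1 and 0.047 for Stub1. The fibroblast list went from -0.19 to 0.081 as a mean of log2 levels. The cause of these changes was not tested. With a pseudocount of 0.5, 1 of the 3 nearest genes remained for Hspb1, Hspb6 and Hspb7 in cultures and for Hspb1 in tumours. Counts of 1 to 10 reads limit Hspb1 in the control cultures.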

Other observations

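The summed level of erythroid markers in shHrs tumours was 1.82 to 8.57 CPM, against 3.51 to 97.6 CPM with shCTL. The log2 difference was -3.02 (p = 0.0317, two-sided exact permutation test, adjusted p = 0.238 over 10 lists), 2 of the 5 genes in the table were detected in every tumour, and Hba-a1 was at 0 in all of them. Of the other marker lists, endothelial (0.16), lymphoid (0.41), myeloid (0.87), keratinocyte (0.12), adipocyte (-0.22), fibroblast (-0.19) and melanocyte lineage markers (0.17) gave log2 differences with adjusted p of 0.317 to 0.897 by the same test. Endothelial markers stood at 309 to 564 CPM and keratinocyte markers at 3.12 to 10.0 CPM in cultures too. The part of these lists in the levels of the small heat shock genes was not tested.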
